A study of Mus musculus with 12 samples.

Results

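The imprinted H19-Igf2 and Kcnq1 clusters sit next to each other near the end of mouse chromosome 7, and 9 of the 22556 genes counted in each library were followed here. They were chosen by name: H19 and Igf2 of the first cluster, and Ascl2, Tssc4, Kcnq1, Kcnq1ot1, Cdkn1c, Slc22a18 and Phlda2 of the second. All 9 had an entry in each of 12 libraries. On the mm10 build they run from H19 at chr7:142575531-142578146, on the minus strand, to Phlda2 at chr7:143501547-143502524, also on the minus strand.

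The libraries hold chromatin-associated RNA (ChrRNA-seq), which is enriched for transcripts still being made, from iXist-ChrX cells. These are female mouse embryonic stem cells (mESCs) of a 129S by Castaneus cross, in which a TetOn promoter stands in for the promoter of Xist on the 129S X chromosome in every line. Doxycycline (Dox) at 1.0 to 1.5 µg/mL for 24 h switches this Xist on, and the study asked how the A-repeat and the m6A region of Xist, the RNA that silences the X chromosome, bear on silencing. WT cells, with no deletion named in their labels, gave 1 library without Dox (0 h) and 1 with Dox. XistDelA cells, which lack the A-repeat, came as 3 clones, C1, 2C2 and C11, with 1 library each in both states. XistDelm6A/T1 11C, called 11C from here on, lacks the m6A region and is 1 line with 2 replicates in both states. For C11 the submitters give the A-repeat deletion a name that differs from the one used for C1 and 2C2. Cells were grown on inactivated mouse fibroblasts as feeders, which the methods say were removed by pre-plating.

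Counts on genes summed to between 18893447 and 36007145 per library, and 44.6% to 47.1% of these could be assigned to a parental genome. The parental columns carry no strain names. The genome that held at least 98.2% of the allelic counts of Xist in every library was taken as 129S, and its part of the allelic counts of a gene is called the 129S share. The labels do not say which strain was the mother, so that no share below is maternal or paternal. The 4 libraries of 11C stood apart from the other 8 in the RNA component Rmrp, at 4056 to 7638 CPM (counts scaled to library size) against 498 to 918 CPM, and tests between lines were also run without them.

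Imprinted genes are expressed mainly from one parental copy, which is set by DNA methylation laid down in the germ line. In the first cluster, a control region between both genes binds the insulator protein CTCF on its unmethylated maternal copy, where H19, a long non-coding RNA, is transcribed, while Igf2, a fetal growth factor, is transcribed from the paternal copy. In the second cluster, the promoter of the long antisense RNA Kcnq1ot1 lies within an intron of Kcnq1 and is active on the unmethylated paternal copy, and the protein-coding genes around it are silenced in cis to different degrees in embryo and placenta.

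Across the 9 genes the levels spanned a wide range. On the scale of CPM per kb of gene span, averaged over 12 libraries, Kcnq1ot1 had a level of 14.5 (9.84 to 21.0) and H19 of 4.06 (1.94 to 6.76). Tssc4 followed with a level of 2.33 CPM per kb (1.52 to 2.87). The remaining genes lay far lower on the same scale, with mean levels of 0.328 for Phlda2, 0.178 for Cdkn1c, 0.124 for Ascl2, 0.0330 for Slc22a18, 0.0327 for Kcnq1 and 0.0202 for Igf2. Kcnq1ot1 did not overlap with H19 in any library, nor Tssc4 with Phlda2, whereas each other pair of neighbours in this order overlapped between libraries. Among all 22556 genes, Kcnq1ot1 stood at the 98.6th percentile of level per kb, H19 at the 92.9th and Igf2 at the 31.5th.

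**Figure D1:**
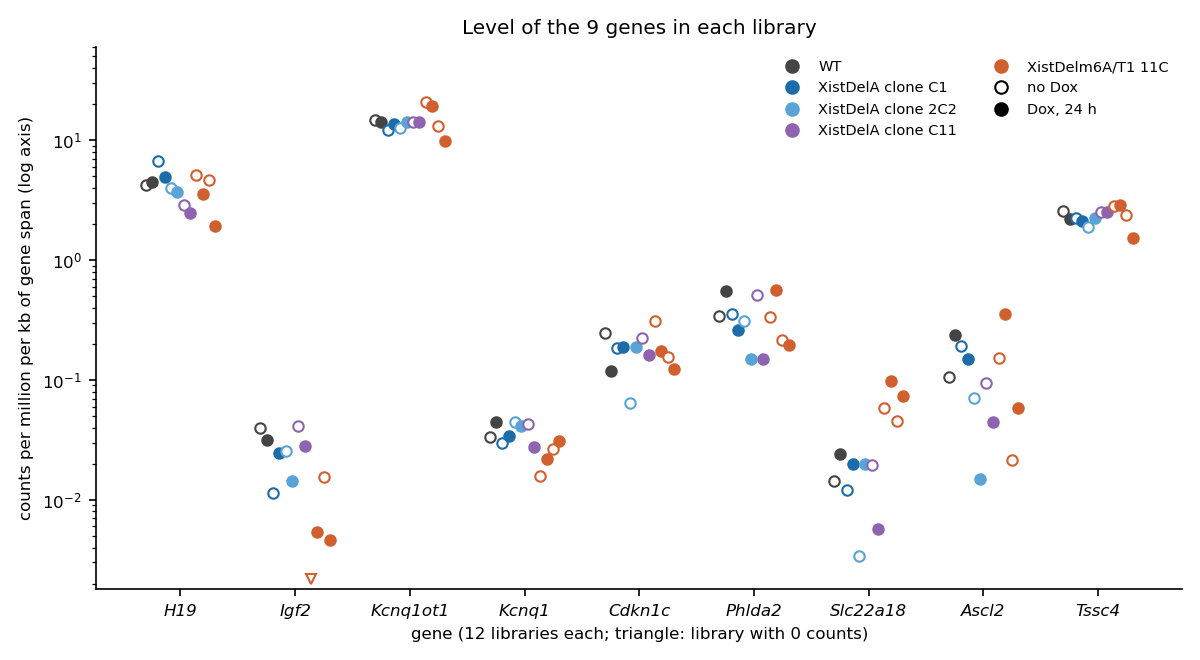
Level of the 9 genes in CPM per kb of gene span (log axis), 1 point for each of 12 libraries, coloured by line and filled for Dox. Kcnq1ot1 was the highest in every library (9.84 to 21.0), and 11C libraries lay highest for Slc22a18.

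The set of RefSeq promoters used (GRCm38.p6) had no entry for H19, Kcnq1 and Cdkn1c. For the other 6 of the 9 genes it held 9 promoter windows of 300 bases around the gene start, 4 of them for Igf2. They are shown for Kcnq1ot1, whose promoter is the control element of its cluster, and for Tssc4 and Slc22a18, which the results below set beside it. Capitals mark CCAAT, searched on both strands (as CCAAT or ATTGG), which occurs in 37.4% of 32851 promoter windows of this length. The Kcnq1ot1 window, chr7:143296498-143296797 on the minus strand, lies inside the span of Kcnq1 on the opposite strand. The windows of Tssc4 and Slc22a18, on the plus strand, are chr7:143069118-143069417 and chr7:143473539-143473838.
Kcnq1ot1: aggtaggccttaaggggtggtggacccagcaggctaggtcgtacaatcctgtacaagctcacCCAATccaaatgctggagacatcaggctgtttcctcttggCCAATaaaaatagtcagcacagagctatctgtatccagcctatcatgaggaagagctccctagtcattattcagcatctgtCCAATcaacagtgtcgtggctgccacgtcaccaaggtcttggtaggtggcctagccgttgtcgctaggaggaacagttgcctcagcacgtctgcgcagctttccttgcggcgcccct
Tssc4: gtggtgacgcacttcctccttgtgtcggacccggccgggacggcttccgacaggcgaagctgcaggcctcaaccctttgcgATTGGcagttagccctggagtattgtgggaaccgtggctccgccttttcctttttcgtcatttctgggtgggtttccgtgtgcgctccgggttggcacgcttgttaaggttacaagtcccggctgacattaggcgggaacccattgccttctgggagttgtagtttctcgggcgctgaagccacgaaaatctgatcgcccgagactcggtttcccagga
Slc22a18: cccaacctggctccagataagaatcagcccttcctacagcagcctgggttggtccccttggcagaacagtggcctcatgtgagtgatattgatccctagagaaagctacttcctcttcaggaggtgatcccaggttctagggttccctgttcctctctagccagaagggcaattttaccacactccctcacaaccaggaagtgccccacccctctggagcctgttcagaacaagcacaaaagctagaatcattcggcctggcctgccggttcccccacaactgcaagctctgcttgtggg
Kcnq1ot1 held 3 matches, all as CCAAT, and 3.37% of all windows held at least 3. The Ascl2 window also held 3. Tssc4 held 1 match, as ATTGG, and Slc22a18 none. The dinucleotide CG, in which DNA is methylated, occurred 9 times for Kcnq1ot1, 23 times for Tssc4 and 2 times for Slc22a18, against a median of 7 over all windows. Also searched were TGCCGC, found in none of these windows and in 11.6% of all, and GGGCGG, found in none of them and in 35.7% of all. A match is a description of the sequence, not a bound site or a cause.

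H19 hosts the microRNA miR-675, whose mature arms are shown because the RNA counted here is their precursor. Capitals mark the seed, bases 2 to 8, in the RefSeq sequences from the minus strand at chr7:142577112-142577133 (5p) and chr7:142577078-142577099 (3p). The arms have different seeds.
miR-675-5p: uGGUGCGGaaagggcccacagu
miR-675-3p: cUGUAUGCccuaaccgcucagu

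The first question was whether the genes were read from 1 parental genome. None was, among those with enough allelic counts. Of the 9 genes, 5 had a mean of at least 10 allelic counts per library (H19, Kcnq1ot1, Kcnq1, Tssc4 and Slc22a18), and 0 of these 5 had under 10% or over 90% of them from 129S in all 12 libraries, against 0.422% of 13042 autosomal genes. H19 and Kcnq1ot1 lay between 40% and 60% in all 12 libraries, that is 2 of 5, against 29.7% of autosomal genes.

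H19, pooled over the libraries, had 607 of 1092 allelic counts from 129S, a share of 55.6% (95% Wilson interval 52.6% to 58.5%). In WT the H19 share was 56.0% without and 56.9% with Dox. In the clones without Dox it was 58.1% (C1), 50.0% (2C2) and 52.2% (C11), and with Dox 54.3%, 57.4% and 57.4%. The 11C replicates had H19 shares of 56.6% and 54.1% without Dox and of 54.2% and 59.4% with Dox. Counts of H19 thus came about equally from both parental genomes in every library, and no group stood apart. Whether they came from the same cells was not tested, and values for feeder markers are given further on. These intervals cover counting error only, since the reads carry no molecular identifiers.

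Kcnq1ot1 gave the most precise share, from 97730 of 178388 allelic counts, at 54.8% (54.6% to 55.0%). Its share was 55.8% and 55.1% in WT, without and with Dox. It was 54.5%, 55.5% and 54.6% in C1, 2C2 and C11 without Dox, and 54.2%, 55.5% and 54.1% with Dox. The 11C replicates gave Kcnq1ot1 shares of 55.9% and 53.4% without Dox and of 54.4% and 52.9% with Dox. All 12 values fell within 52.9% to 55.9%, close to the median share of genes on chromosome 7, which was 52.3% to 53.0% depending on the library. With Dox the share was lower in all 6 pairs, by at most 1.52 percentage points, and the test of this change is given further on.

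Kcnq1, a potassium channel gene transcribed across Kcnq1ot1 on the other strand, had a pooled 129S share of 56.2% (53.8% to 58.5%) and values of 48.8% to 63.6%, with a median of 56.1%. Its counts were 0.286% to 1.35% of those of Kcnq1ot1 in the same library, and the accuracy of the strand assignment was not tested. For Slc22a18, a transporter gene, the pooled share was 53.0% (44.6% to 61.2%) from only 134 allelic counts, 89 of them in 11C (49.4%). Its other lines ran from 42.9% in WT to 87.5% in C11 (52.9% to 97.8%), on 8 to 14 allelic counts each, and single libraries from 30% to 100%. Tssc4 had a pooled share of 60.1% (56.2% to 63.9%). By line, Tssc4 was lowest in WT, at 47.2% (38.6% to 55.9%), and highest in C11, at 69.9% (60.5% to 77.9%), with 62.2% in C1, 61.1% in 2C2 and 61.6% in 11C. Single libraries of the mutant lines ran from 45.9% to 75.7% and overlapped with WT.

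Too few allelic counts were left for the other 4 genes. Over all 12 libraries there were 6 for Igf2, 20 for Cdkn1c, 22 for Ascl2 and 23 for Phlda2. Pooled, the 129S share was 16.7% (3.01% to 56.4%) for Igf2, 50.0% (29.9% to 70.1%) for Cdkn1c, 77.3% (56.6% to 89.9%) for Ascl2 and 65.2% (44.9% to 81.2%) for Phlda2. A parental bias of these genes was not detectable at this depth. Only for Ascl2 did the lower bound lie above the chromosome 7 median, on 22 counts pooled over libraries, 11 of them from WT. That difference was not tested.

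**Figure D2:**
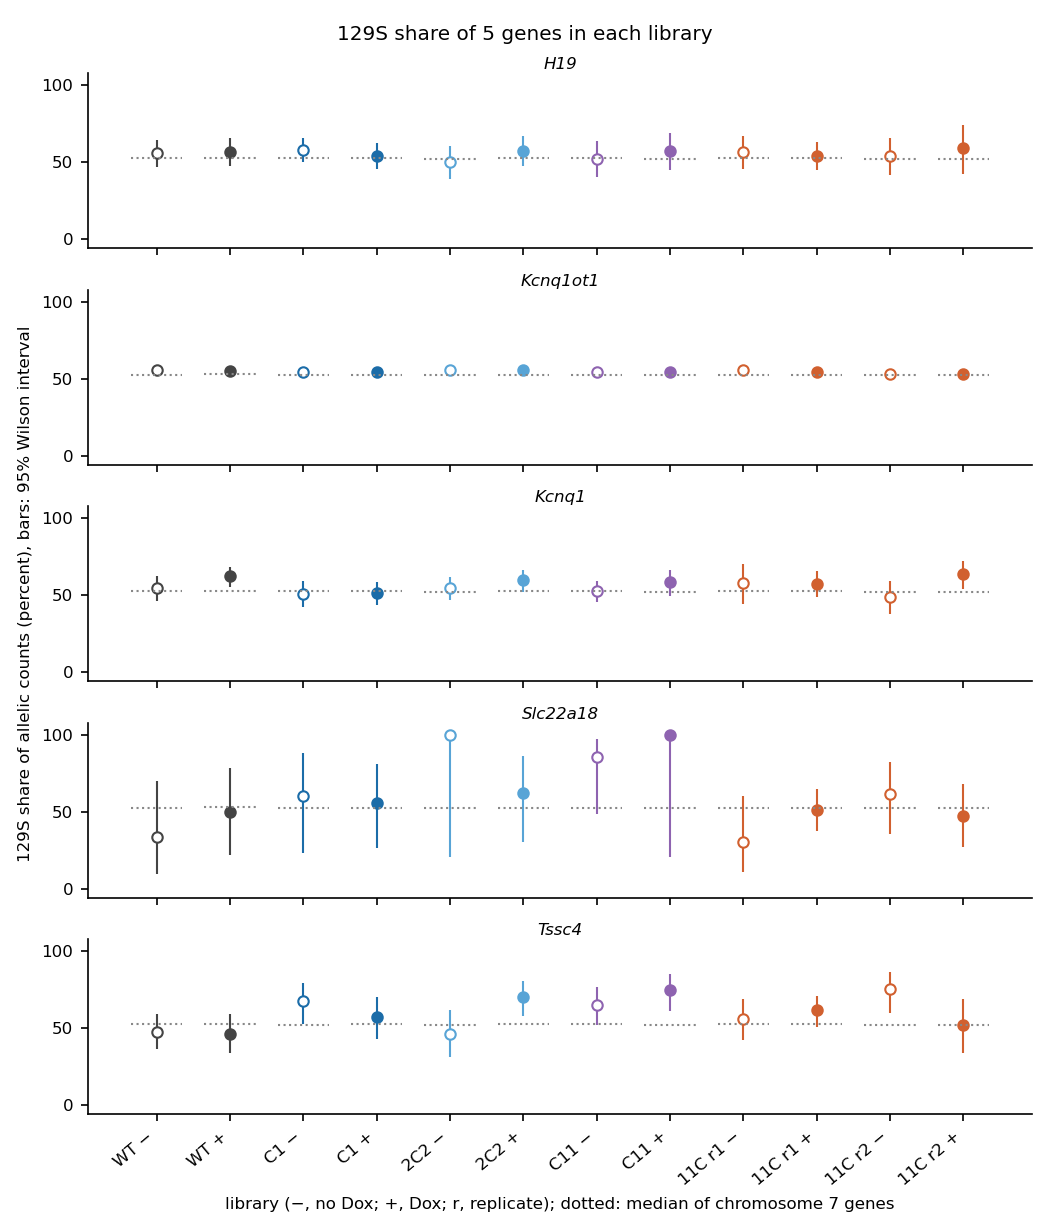
Share of allelic counts from 129S (percent) with 95% Wilson intervals, for 5 genes in each of 12 libraries, with the median share of chromosome 7 genes in that library as dotted lines. H19 (50.0% to 59.4%) and Kcnq1ot1 (52.9% to 55.9%) stayed near these lines in all libraries.

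The same criterion was applied to other imprinted genes and neighbours. Of 19 listed genes in and beside the clusters, 12 had enough allelic counts, and none was under 10% or over 90% from 129S in all libraries. Only 0.422% of 13042 autosomal genes were, so that 0 in a list this short does not set it apart. The most uneven were Tnfrsf26, with a mean share of 17.3% (0 to 33.3%), and Tnfrsf22, with 72.8% (66.9% to 77.5%), a pair of receptor genes with opposite shares. Of 9 genes of the imprinted gene network, 8 had enough allelic counts and again none met that criterion. The most uneven was Dlk1, with a mean share of 25.8% (0 to 50.0%) on a mean of only 13.25 allelic counts per library. Esrrb and Akt1, which lie on chromosome 12 as Dlk1 does, had mean shares of 28.3% and 29.6%. In the network, other mean shares were 74.1% for the transcription factor gene Plagl1 (70.1% to 78.8%), 38.4% for Peg3 (33.3% to 42.5%), 52.2% for Mest (44.7% to 54.7%) and 60.3% for Grb10 (49.6% to 68.9%). Plagl1 and Peg3 thus leaned to opposite genomes in every library, but both copies were read. Among autosomal genes, 33.2% had a mean share under 40% or over 60%.

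**Figure D3:**
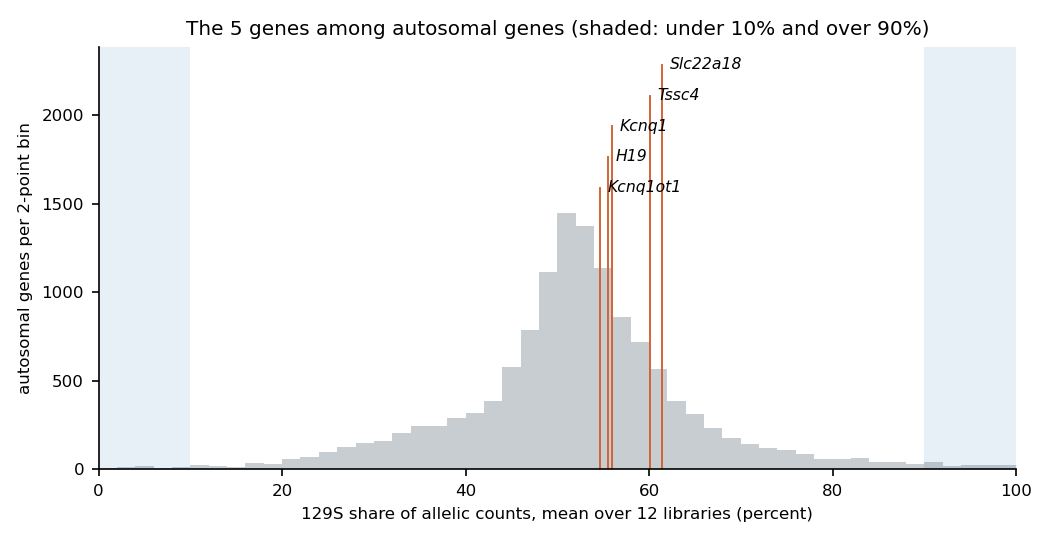
Mean 129S share over 12 libraries (percent, x axis) of autosomal genes with enough allelic counts (bars, number of genes per bin), with 5 genes of the clusters as lines. All of these lines, from 54.7% (Kcnq1ot1) to 61.4% (Slc22a18), fell in the body of the distribution, away from the shaded ends. The Slc22a18 mean weighs all libraries equally, also those with 1 allelic count, and its pooled share was 53.0%.

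A parental share that moves with Dox would show as a change in the ratio of both parental counts. None passed the test (edgeR, on parental counts with the pairs as blocks). In the XistDelA clones 0 of 5 genes passed, against 1% of 13549 genes. In 11C it was again 0 of 5, against 1.46% of the same genes. At an unadjusted p under 0.05 there were also 0 of 5 in each, against 1228 and 995 of all genes. By limma on log2 parental ratios 0 of 5 passed in each, against 48 and 279 of all genes. In 11C the pairs share only a replicate number. Without these pairs as blocks 106 genes passed in 11C instead of 198 and 0 instead of 136 in the clones, with 0 of 5 members in each. Of the listed neighbours, maintenance factors, Igf2 signalling genes and network genes, none passed in either mutant (0 of 12, 0 of 7, 0 of 13 and 0 of 8).

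The parental ratio of Kcnq1ot1 changed on the log2 scale by -0.015 ± 0.025 (SE) in the clones (adjusted p 0.93), with a lower 129S share in 3 of 3, and by -0.064 ± 0.038 in 11C (adjusted p 0.78), lower in 2 of 2. In 11C this change was -0.030 without the first replicate and -0.089 without the second. In the clones it ran from -0.022 without 2C2 to -0.0082 without C11. For H19 the log2 change of the ratio was 0.093 ± 0.25 (adjusted p 0.97), higher in 2 of 3 clones, and 0.0086 ± 0.36 in 11C (adjusted p 1), higher in 1 of 2. The 95% interval for Kcnq1ot1 in the clones, from -0.064 to 0.033, leaves room for only a small shift, whereas that for H19 in 11C, from -0.70 to 0.72, covers large ones.

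Between the 5 lines, 0 of 5 genes differed in parental share by edgeR, against 14.2% of 13549 genes. At an unadjusted p under 0.05 there were also 0 of 5, against 3229 of these genes, and by limma 0 of 5 against 1662. Without 11C, 0 of 5 passed, against 1433 of the 13549 genes. In that fit 2 of 5 (Kcnq1ot1 and Tssc4) had an unadjusted p under 0.05, as had 2413 of all genes. Tssc4 had the lowest adjusted p, 0.34, for log2 ratios above WT by 0.88 in C1, 0.78 in 2C2, 1.38 in C11 and 0.83 in 11C. H19 had an adjusted p of 1.00, with log2 ratios relative to WT from -0.15 in 2C2 to -0.0086 in C1. Of the listed neighbours, 0 of 12 differed, and of the imprint maintenance factors 1 of 7 (Dppa3). In the list of Igf2 signalling 5 of 13 passed (Igfbp3, Igf2bp1, Igfbp4, Igf2bp3 and Igf1r), and in the imprinted gene network 3 of 8 (Plagl1, Grb10 and Peg3). Igfbp3, Igf2bp1, Igfbp4 and Grb10 lie on chromosome 11 and had their highest pooled shares in C1 and 11C. So had Sparc on that chromosome (67.0% and 67.3%, against 48.9% to 54.7% in the other lines). Dppa3 on chromosome 6 was lowest in C11, at 28.1%, as was Nanog near it, at 18.7%. Igf1r, Plagl1 and Peg3 lie on neither chromosome. The part of such regional shares in these calls was not tested.

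Levels after Dox came next. Without a block for the clone, no gene of the clusters passed the test in the XistDelA clones: 0 of 6 tested, against 0.0202% of 14866 genes (edgeR, 3 called and 2162 at an unadjusted p under 0.05). Of the 6, 0 had an unadjusted p under 0.05, and DESeq2 called 0 of them, against 421 of all genes, but gave an adjusted p to only 3 of them (H19, Kcnq1ot1 and Kcnq1). Igf2, Ascl2 and Phlda2 had too few counts to enter. In 11C the same 6 genes were tested and 0 passed, against 0% of 15140 genes. There 1 of 6, H19, had an unadjusted p under 0.05, as had 173 of all genes, and DESeq2 called 0 of the 6 and 3 of all genes. These p-values, from fits without a block, measure the spread between these clones and replicates. The methods call replicates biological, but those of 11C are of 1 line.

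H19 was nevertheless lower with Dox in all 5 mutant pairs. It went from 17.7 to 12.9 CPM in C1, from 10.4 to 9.74 CPM in 2C2 and from 7.51 to 6.52 CPM in C11. In 11C it went from 13.4 to 9.30 CPM and from 12.2 to 5.08 CPM. WT, with 11.03 CPM without and 11.80 CPM with Dox, went the other way, but its 95% Wilson intervals overlapped (9.84 to 12.4 and 10.6 to 13.1 CPM). They also overlapped in 2C2 and C11, but not in C1 or in either 11C replicate. The clones started from such different levels that both states overlapped across them, while in 11C both Dox libraries lay below both libraries without Dox.

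In the clones the log2 change of H19 was -0.31 ± 0.34 (SE; 95% interval -1.11 to 0.49; edgeR, adjusted p 0.73), lower in 3 of 3. With the clone as a block, which pairs each clone with itself, it was -0.29 ± 0.10 (-0.50 to -0.092) and passed, at an adjusted p of 0.025, the lowest of the alternatives (up to 0.96). H19 was then the only one of 6 genes to pass, 1 of 6 lower, against 14.9% of 14866 genes called lower in that fit and 29.7% called in either direction. In 11C the log2 change was -0.86 ± 0.33 (-1.64 to -0.069; edgeR, adjusted p 1), lower in 2 of 2. With the shared replicate number as a block it did pass. That value is given with the processing, since the number shows no pairing. The difference between both changes, 11C minus XistDelA, was -0.53 ± 0.51 on the log2 scale and did not pass (adjusted p 1.00). Leaving out 1 library pair moved this difference between -0.86 and -0.29 (without the first and the second 11C replicate), and the change in the clones between -0.38 (without 2C2) and -0.18 (without C1).

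Levels of feeder markers ran beside those of H19. Of 10 fibroblast markers all were in the files, Fbln2 was the most abundant at a mean of 12.5 CPM, and Lum was at 0 in 10 of 12 libraries. Their summed level was 33.2, 23.2 and 20.7 CPM in C1, 2C2 and C11 without Dox, and 29.0, 27.8 and 19.4 CPM with Dox. It was 25.8 and 24.4 CPM in WT without and with Dox, 22.6 and 14.2 CPM in 11C without Dox and 25.9 and 10.6 CPM with Dox. H19 and this sum were both highest in C1 without Dox and both lowest in the second 11C replicate with Dox, while in WT, 2C2 and the first 11C replicate they moved in opposite directions with Dox. The correlation between both was r = 0.67 over 12 libraries and 0.92 over the 8 without 11C, which are not independent samples. The 4 of these markers with enough allelic counts had mean 129S shares of 50.3% (Thy1), 57.0% (Pdgfrb), 65.9% (Col1a2) and 68.0% (Fbln2), and those with fewer had 36.8% (Acta2), 69.0% (Dcn), 74.3% (Col1a1), 90.2% (Col3a1) and 95.5% (Postn). Of 7 of these markers tested in the clones, 0 passed without or with the clone as a block, with a median log2 change of -0.12 without it. Their part in the H19 levels and shares was not tested, and in such bulk RNA a smaller number of expressing cells and less RNA per cell cannot be told apart. The sums were small beside those of 8 ES cell markers, 1209 to 2112 CPM, led by Zfp42. Of these Sox2, which lies within Sox2ot on the same strand, had 0 counts.

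Kcnq1ot1 had 1234 and 1194 CPM in WT, without and with Dox. In C1, 2C2 and C11 it had 1012, 1060 and 1175 CPM without Dox and 1147, 1196 and 1183 CPM with Dox, so that it was higher with Dox in 3 of 3 clones. In the 11C replicates it had 1752 and 1104 CPM without Dox and 1614 and 821 CPM with Dox, lower in 2 of 2. The highest and the lowest of all 12 values were both in 11C. The log2 change was 0.091 ± 0.081 (-0.098 to 0.28) in the clones, with an adjusted p of 0.66 by edgeR, and -0.26 ± 0.36 in 11C (-1.12 to 0.60, adjusted p 1). In the clones the change was 0.054 without C1 and 0.135 without C11. Its difference between both mutants, -0.33 ± 0.31, did not pass (adjusted p 1.00).

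The protein-coding genes of the second cluster showed no common direction with Dox. Kcnq1 changed on the log2 scale by -0.21 ± 0.21 in the clones, lower in 2 of 3 (-0.39 without C1 and -0.019 without C11), and by 0.32 ± 0.43 in 11C, higher in 2 of 2. Tssc4, which lies between Ascl2 and Kcnq1, changed by 0.027 ± 0.17 and -0.26 ± 0.40. Cdkn1c, an inhibitor of cyclin-dependent kinases, changed by 0.13 ± 0.42 and -0.64 ± 0.61, at 4 to 18 counts per library, and Slc22a18 by 0.32 ± 0.63 and 0.73 ± 0.44. Without the first 11C replicate, the change in 11C was -0.55 for Tssc4 and -0.26 for Cdkn1c. Without the second it was -0.051 and -0.90. In the test of the difference between the mutants 8 genes entered and 0 passed, against 0% of 15745 genes (edgeR, 0 of 8 and 233 of all genes at an unadjusted p under 0.05; DESeq2, 0 of 8 and 2 of all genes). The largest differences were those of Ascl2, a transcription factor of the trophoblast lineage, at 2.03 ± 1.30 with 1 to 31 counts per library, and of Phlda2, a growth-restraining gene of the placenta, at 1.60 ± 0.74 with 4 to 20 counts.

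**Figure D4:**
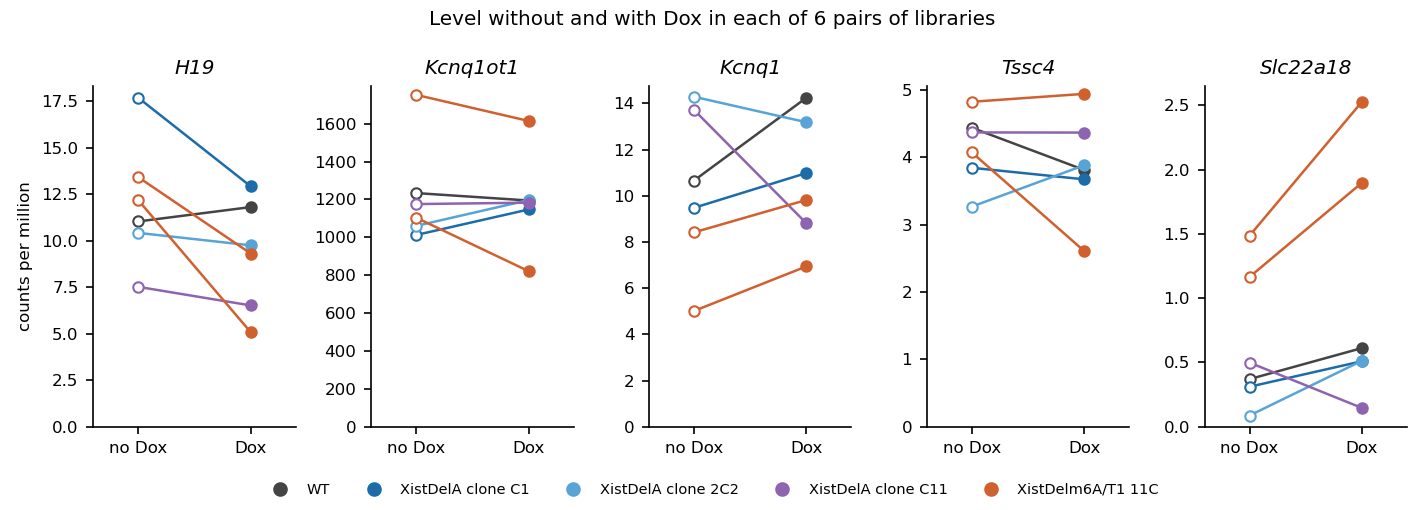
Level in CPM without and with Dox for 5 genes, with a line for each of 6 pairs of libraries. H19 was lower with Dox in all 5 mutant pairs and higher in WT (11.03 against 11.80 CPM), and Slc22a18 lay highest in both 11C pairs.

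The context lists showed no call with Dox by edgeR without a block. Of listed neighbours 0 of 14 passed in the clones and 0 of 15 in 11C, with median log2 changes of 0.036 and 0.070, against 0.011 and -0.0012 over all genes tested. For imprint maintenance factors it was 0 of 7 in each (medians -0.042 and -0.011), for Igf2 signalling 0 of 14 in each (-0.029 and -0.069) and for the imprinted gene network 0 of 9 and 0 of 8 (-0.073 and -0.14). Of the cell type markers, 0 of 7 ES cell, 0 of 3 trophoblast and 0 of 6 primitive endoderm genes passed in the clones, and 0 of 7, 0 of 5 and 0 of 6 in 11C. The difference between the mutants gave no call in any list either. With the clone as a block, where 29.7% of all 14866 genes passed, 2 of 14 neighbours did (Cars, 0.48, and Ctsd, -0.23), 3 of 7 maintenance factors (Uhrf1, -0.29, Zfp57, -0.21, and Trim28, -0.18) and 3 of 14 in Igf2 signalling (Igf1r, 0.22, Igfbp3, -0.35, and Igf2bp1, -0.17). In the imprinted gene network 6 of 9 passed with the block, 3 higher and 3 lower, with log2 changes from -0.62 for Peg10 and -0.35 for Plagl1 to 0.31 for Grb10. Among markers 5 of 7 of ES cells (Zfp42 higher, and Pou5f1, Klf4, Dppa5a and Tdgf1 lower, median of the list -0.17) and 1 of 6 of primitive endoderm (Sox7, lower) passed with it. Their part in the H19 change with Dox was not tested.

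Levels were also compared between lines. In these tests, as in those of parental share between lines, the spread came from libraries of the same line, with and without Dox. Their p-values thus compare these lines as sampled, not genotypes. Of the 9 genes, all of which entered, 2 differed between the 5 lines (edgeR, F test with Dox in the fit): H19 and Slc22a18. This was 2 of 9 against 35.2% of 15826 genes, so that the members differed no more often than genes in general.

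Slc22a18 was highest in 11C. It had 1.48 and 1.16 CPM in 11C without Dox and 2.53 and 1.90 CPM with Dox. WT had 0.370 and 0.612 CPM without and with Dox. The clones C1, 2C2 and C11 had 0.311, 0.0871 and 0.498 CPM without Dox, and 0.509, 0.513 and 0.146 CPM with Dox. All 4 libraries of 11C were above all other 8, a pattern shown by 1 of 9 genes, against 15.8% of 15826 genes, and thus not particular to it. These levels rest on 22 to 91 counts in 11C and on 2 to 17 in the others. Relative to WT, the log2 difference was 1.77 in 11C, -0.24 in C1, -0.68 in 2C2 and -0.50 in C11, with an adjusted p of 0.0061, and without the 4 libraries of 11C the adjusted p was 0.78, the highest of the alternatives (down to 1.8e-05). As 11C is 1 line, whose 4 libraries also stood apart in Rmrp, its deletion, the line itself and the set of libraries cannot be told apart. The same holds for every comparison of 11C with other lines below.

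The summed level of primitive endoderm markers was also highest in 11C. All 6 listed markers were in the files and none was at 0, with Dab2 the most abundant at a mean of 30.3 CPM. Their summed level was 66.0 and 56.1 CPM in 11C without Dox and 66.1 and 61.9 CPM with Dox. In WT it was 45.7 and 51.5 CPM, in C1 32.7 and 37.5 CPM, in 2C2 40.8 and 44.7 CPM and in C11 48.7 and 47.2 CPM, without and with Dox. Gata6 and Gata4, transcription factors of that lineage, had means of 9.07 ± 1.04 and 13.6 ± 3.79 CPM in 11C (SD, n = 4 libraries) and of at most 3.63 and 5.31 CPM in the other lines. Dab2 and Sox7 were instead highest in C11, at 35.0 and 0.939 CPM, against 30.8 and 0.436 CPM in 11C. Between lines 3 of 6 of these markers passed (Sox17, Gata4 and Gata6, each highest in 11C), where 35.2% of all genes did. Of 7 trophoblast markers, with Eomes the most abundant at a mean of 4.12 CPM and Tpbpa at 0 in all libraries, 3 of 5 tested passed (Gata3, lowest in 11C, and Plet1 and Eomes, highest in it). Their summed level was 10.5, 8.94, 14.3 and 12.4 CPM in 11C (first replicate without and with Dox, then the second), and 7.05 to 9.41 CPM in the other libraries. Of 7 ES cell markers tested 4 differed between lines (Klf4, Nanog, Zfp42 and Dppa5a), each with its lowest mean in 11C, such as 36.0 ± 5.42 CPM for Klf4 against 68.9 to 91.3 CPM in the other lines, while Esrrb and Tdgf1, which did not pass, had their highest means there (599 and 192 CPM). The part of these cell types in the Slc22a18 level was not tested.

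**Figure D5:**
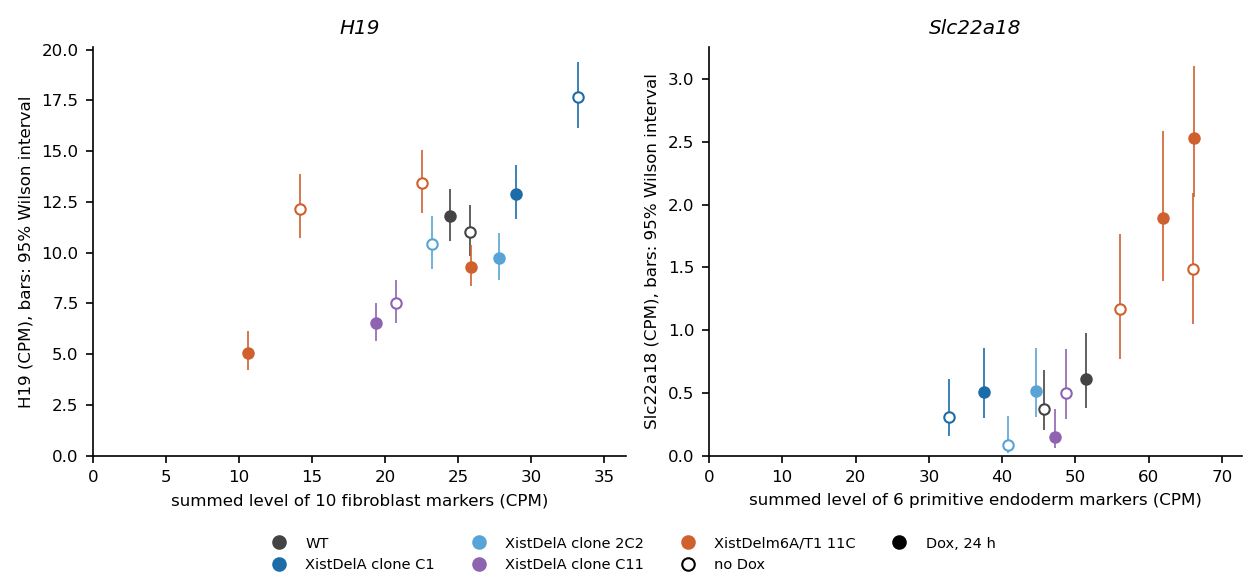
Level in CPM, with 95% Wilson intervals, of H19 against the summed level of 10 fibroblast markers, and of Slc22a18 against that of 6 primitive endoderm markers, 1 point for each of 12 libraries. H19 was lowest (5.08 CPM) in the library with the lowest fibroblast sum (10.6 CPM), and the 4 libraries of 11C lay highest on both axes for Slc22a18.

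H19 differed by clone. Its mean level was 15.3 ± 3.37 CPM in C1, 11.4 ± 0.546 CPM in WT, 10.1 ± 0.474 CPM in 2C2 and 7.02 ± 0.706 CPM in C11 (SD over 2 libraries each), and 9.99 ± 3.70 CPM in 11C (4 libraries). Relative to WT, the log2 difference was 0.41 in C1, -0.16 in 2C2, -0.69 in C11 and -0.33 in 11C, with an adjusted p of 0.041. C1 lay above and C11 below all libraries of WT and 2C2, whereas 11C, with 5.08 to 13.4 CPM, overlapped all other lines. Without clone C11 the adjusted p was 0.13, and without the 4 libraries of 11C it was 0.00034. The fibroblast sum given above was also higher in C1 than in C11, though Col3a1 and Postn were not. Of 8 markers tested 4 differed between lines, against 35.2% of all genes: Col1a1 and Col1a2 were lowest in 11C, and Pdgfrb and Thy1 highest.

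Igf2 was barely detected. In WT it had 11 and 9 counts, or 0.407 and 0.324 CPM, without and with Dox. Without Dox 3, 6 and 11 counts fell on it in C1, 2C2 and C11, and with Dox 7, 4 and 8, which is 0.117 to 0.422 CPM. In 11C it was 0 and 3 without and 2 and 1 with Dox, at most 0.159 CPM, and the 0 in the first replicate allows up to 0.139 CPM (3 counts). The mean level in 11C was thus the lowest of the lines. Its library with 3 counts, at 0.159 CPM, lay above C1 without Dox (0.117 CPM) and 2C2 with Dox (0.147 CPM). The edgeR test between lines gave an adjusted p of 0.058. A log2 difference from WT of -2.53 in 11C was fitted on these few counts.

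The other genes did not differ between lines by edgeR. For Kcnq1 the adjusted p was 0.12, with a log2 difference from WT of -0.77 in 11C, where it had 5.01 and 8.42 CPM without Dox and 6.94 and 9.82 CPM with Dox, against 8.81 to 14.3 CPM in the other 8 libraries. By DESeq2 Kcnq1 did pass, at an adjusted p of 0.047, the lowest of the alternatives (up to 0.27). Kcnq1ot1 had an adjusted p of 0.94, with log2 differences from WT of -0.15 in C1 and 0.033 in 11C, the smallest spread between lines among the 9 genes. Tssc4 (2.61 to 4.94 CPM), Cdkn1c (0.174 to 0.835 CPM), Phlda2 (0.146 to 0.555 CPM) and Ascl2 (0.0366 to 0.861 CPM) had adjusted p-values of 0.84, 0.93, 0.81 and 0.42.

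Among listed genes around these pathways, where 35.2% of all genes passed, 1 of 15 neighbours differed between lines (Nap1l4, with 109 ± 5.99 CPM in 11C and 140 ± 1.30 CPM in WT). Of the imprint maintenance factors 4 of 7 passed. Ctcf, the insulator protein of the H19 control region, had 196 ± 3.48 CPM in 11C against 290 ± 3.15 CPM in WT, and Trim28 had 229 ± 45.0 against 413 ± 13.1 CPM, with Uhrf1 and Zfp445 as the others. In Igf2 signalling 8 of 14 passed (Irs1, Igfbp3, Igf2bp1, Igfbp4, Igf2bp2, Igf2bp3, Igf1r and Insr). Igf1r, a receptor for Igf2, had 418 ± 69.3 CPM in 11C and 221 ± 25 CPM in WT, while Igf2bp1, whose protein binds Igf2 mRNA, had 264 ± 63.3 against 413 ± 40.4 CPM. In the imprinted gene network 4 of 9 passed (Plagl1, Sgce, Mest and Peg3). These means are over 4 libraries of 11C and 2 of WT, with SD.

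Genes like each of the better expressed members were sought by Pearson correlation of log2(CPM + 1) over the 12 libraries among 13451 genes, as a description. The libraries share clones and line, so that these values are not from independent samples. Genes like H19 included Sparc (r = 0.88) and Gbp7 (0.85), and Sparc, an extracellular matrix gene, had 57.0 CPM in C1 and 39.2 CPM in C11. Kcnq1ot1 was most like Lsm7, Map3k1 and Anks3 (0.96 each). Kcnq1 was most like Prrt3 (0.96), Ggh (0.92) and Nipal1 (0.92), and Tssc4 was most like Rcn3 (0.97), Ergic3 (0.93) and Aprt (0.92). None of these genes was another member or a listed neighbour of the clusters.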

How the data were processed

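The authors aligned read pairs to mm10 (the submitters' processing notes name Bowtie2 2.3.2, STAR 2.4.2a, SAMtools and bedtools) and counted them by strand over gene spans, introns included, with featureCounts 1.5.2. The values used are these deposited counts, not normalized, for all read pairs and for each parental genome. No member overlapped another gene on its own strand.

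CPM was computed over all counts on genes. Levels were tested with edgeR 4.0.16 quasi-likelihood fits (TMM, filterByExpr with a minimum count of 10) and parental ratios with edgeR on both parental counts for genes that averaged 10 or more of them per library, with Benjamini-Hochberg adjustment over all genes tested and a threshold of 0.05. Alternatives were DESeq2 1.42.0, its size factors, limma 3.58.1, no count filter, 30 or more allelic counts on average, all libraries in 1 fit, blocks, and libraries left out. These ran in R 4.3.3 and other values came from Python 3.11.15. The fits were tested on simulated counts.

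The members, lists and tests were chosen with earlier results of these data known. The text names all members, listed genes that passed, up to 4 others of a list for their role, and for likeness up to 3 genes per member.

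The XistDelA libraries are paired because each clone is 1 cell line. Deviations from the group means correlated at 0.84, 0.65 and 0.74 within C1, 2C2 and C11, and were negative between clones.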

Additional observations from a re-analysis of the deposited data

Results flagged for a closer look

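WT moved in the opposite direction to every pair of a mutant line for a few genes, on the scale of log2(CPM + 1), Dox minus no Dox. H19 changed by 0.090 in WT, by -0.42, -0.087 and -0.18 in C1, 2C2 and C11 and by -0.48 and -1.12 in the 11C replicates. Kcnq1ot1 changed by -0.047 in WT and by 0.18, 0.17 and 0.0091 in the clones. Phlda2 changed by 0.21 in WT and by -0.11, -0.19 and -0.39 in the clones, and Ascl2 by 0.32 in WT and by -0.10, -0.18 and -0.15 in the clones, at no more than 16 counts in any of these libraries. These differences were not tested, since WT had 1 library in each state.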

How the results depend on the processing

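Of 285 values of single genes under the alternatives, 271 kept their direction and their side of the threshold, 3 passed only under an alternative, 2 no longer passed and 9 changed sign. The 2 lost calls, H19 without C11 and Slc22a18 without 11C, are given above with their values. Division by TMM library sizes moved no member's mean CPM by more than 2.77%.

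Counts of genes called moved more. With Dox in the XistDelA clones, 3 were called by edgeR, 421 by DESeq2, 4410 with the clone as a replicate block, and 0 to 2 with a clone left out. In 11C, 0 were called by edgeR, 2 without a count filter, 3 by DESeq2, 2 with all libraries in 1 fit, and 1 with either replicate left out. The 11C replicates share only a number (their deviations correlate at 0.77, which with 2 pairs shows no pairing), and with this number as a block 237 genes were called, H19 among them at -0.88 ± 0.22 (adjusted p 0.0071, the lowest of the alternatives, up to 1). The difference between the mutants gave 0 calls, 2 by DESeq2, and 117 with the nested block, which changed the call of no member, though 5 of 8 then had an unadjusted p under 0.05 (edgeR), as had 1955 of 15745 genes. For the parental ratio, 136 genes were called in the clones, 48 by limma, 0 without the pairing block and 57 to 73 with a clone left out. In 11C 198 were called, 106 without the pairing block and 128 to 183 with a replicate left out. The cause was not tested. A fit with 1 library left in a group assumes that it varies like the others.

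All sign changes came with a replicate left out, in log2 changes that passed under no alternative. Over the leave-outs, levels in the clones changed by -0.25 to 0.52 (Cdkn1c), -0.32 to 1.26 (Slc22a18) and -0.043 to 0.073 (Tssc4), and the H19 ratio by -0.051 to 0.37, with the lowest always without 2C2. The difference between the mutants for Slc22a18 was -0.53 (without C11) to 1.06. In 11C the ratios changed by -0.14 to 0.31 (H19), -0.023 to 0.87 (Kcnq1), -1.52 to 0.32 (Tssc4) and -0.82 to 1.26 (Slc22a18). The cause was not tested. Depth limited the parental shares of Igf2, Ascl2, Cdkn1c and Phlda2 most.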
